A study of Homo sapiens with 8 samples.

Results

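The collagen genes and the lysyl oxidase genes were followed through 8 two-colour arrays. Members were taken by gene name: a name made of COL, a number, the letter A and a number, or LOX, LOXL1, LOXL2, LOXL3 or LOXL4. This gave 49 of the 43317 gene names on the array, of which 44 were collagen genes and 5 were lysyl oxidase genes. They were covered by 70 of the 58201 probes, and 16 members had more than 1 probe. The rule read gene names and no measured value, but it was set with earlier results of these data known.

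Each array compared RNA of cells that had received 1 mature miRNA, in the Cy5 channel, with RNA of the line's mock cells, in the Cy3 channel. HCT116, a human colon cancer line, received one strand (5p or 3p) of miR-139 or miR-143. PANC-1, a human pancreatic cancer line, received miR-30c-5p or miR-30a-5p, which are guide strands, or one of the passenger strands miR-30c-2-3p and miR-30a-3p. The transfection reagent was Lipofectamine RNAiMAX, and the labels list the mock cells as not transfected. Each miRNA was on 1 array, so no difference between transfected and mock cells has a replicate check or a p-value. The sample titles state the aim as finding target genes of each miRNA. In every group the control was mock cells and not cells given a control miRNA.

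Collagens are triple-helical proteins of the extracellular matrix, and each helix is built from 3 alpha chains. Fibrillar collagens such as types I and V form the fibres of connective tissue, type IV forms the sheet of the basement membrane, type VII anchors the basement membrane to the tissue below it, and FACIT collagens decorate the surface of fibrils. Lysyl oxidases are copper-dependent enzymes that oxidise lysines of collagen and elastin so that chains can be cross-linked. A mature miRNA guides the silencing complex to transcripts that pair with its seed, the bases near its 5′ end.

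The mature sequences are shown because the seed is what separates one array from the next. They were taken from RefSeq records on GRCh38.p14, are written 5′ to 3′, and carry the seed (bases 2 to 8) in capitals.
miR-139-5p: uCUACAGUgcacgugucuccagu
miR-139-3p: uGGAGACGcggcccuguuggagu
miR-143-5p: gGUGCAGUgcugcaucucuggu
miR-143-3p: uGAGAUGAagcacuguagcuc
miR-30c-5p: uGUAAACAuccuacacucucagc
miR-30a-5p: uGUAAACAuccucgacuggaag
miR-30c-2-3p: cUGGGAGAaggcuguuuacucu
miR-30a-3p: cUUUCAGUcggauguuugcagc
The guide strands miR-30c-5p and miR-30a-5p share the seed GUAAACA, and the other 6 seeds each occur once in this set.

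The 8 arrays shared 1 slide and 1 scan. Of the 60901 spots per array that were not controls, 44.1% to 45.3% stood well above background in the mock channel and 45.8% to 51.4% in the transfected channel, with 0 spots saturated. Dyes were not swapped, so a dye effect of a probe and an effect of the miRNA cannot be told apart. Slide column and cell line coincided and cannot be told apart either. In the mock channels all 6 epithelial markers were well above background in HCT116 and 5 of 6 in PANC-1, where CDH1 reached this in 3 of 4 channels. Of the colorectal markers, CDX1 and CDX2 were above background in all HCT116 mock channels and CDH17, VIL1 and LGALS4 in none. In PANC-1, CDX1, CDX2 and LGALS4 were above it in all mock channels and CDH17 and VIL1 in none. Of the ductal markers, KRT7, SOX9 and MUC1 were above it in all mock channels of both lines and CFTR in none. KRT7 was higher in HCT116 (mean log2 level 11.287 against 9.205) and MUC1 in PANC-1 (7.675 against 6.001). Detection of these colorectal and ductal markers thus did not separate the lines by their labels. The mesenchymal markers VIM, ZEB1 and CDH2 were above background in all PANC-1 mock channels and SNAI2 in none. In HCT116, VIM and ZEB1 were above it in all mock channels, SNAI2 in 3 of 4 and CDH2 in none. VIM had a mean log2 level of 15.168 in PANC-1 against 6.534 in HCT116. Of the 6 fibroblast markers, DCN, LUM, PDGFRA and FAP were at background in both lines, PDGFRB was above it in both, and THY1 was above it in PANC-1 only. In bulk RNA of a culture, fewer cells expressing a gene and less RNA per cell cannot be told apart.

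A member counted as detected on an array when either channel of its probe stood well above background. On this rule 22 members were detected on all 8 arrays, 13 on 1 to 7 arrays and 14 on none. Among the 14 were COL1A2 and COL3A1, which encode chains of the major fibrillar collagens, COL2A1 of cartilage, and COL6A3, a chain of type VI. The others at background throughout were COL5A3, COL6A5, COL6A6, COL8A1, COL9A1, COL11A1, COL15A1, COL19A1, COL22A1 and COL25A1. COL1A1 was detected on all arrays while COL1A2, its partner chain in type I collagen, was on none. LOX was detected on 3 PANC-1 arrays and on no HCT116 array. A member below background has only a bound, and this depth cannot show whether it is absent.

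The size rule was 2-fold: a gene was called lower or higher than mock where its log2 ratio of Cy5 over Cy3 lay 1 or more from 0. Over the 8 arrays there were 223 pairs of a detected member and an array. In 11 of these the member was past 2-fold, 6 times lower and 5 times higher than in mock cells, and all 11 belonged to 7 collagen genes. No lysyl oxidase gene reached 2-fold on any array with a background offset of 50 and loess, while each of the 5 did on 1 or more arrays under another background treatment or centring. In 23 of the 223 pairs only 1 channel was well above background, and the largest log2 ratio among those was 0.32 in size.

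**Figure D1:**
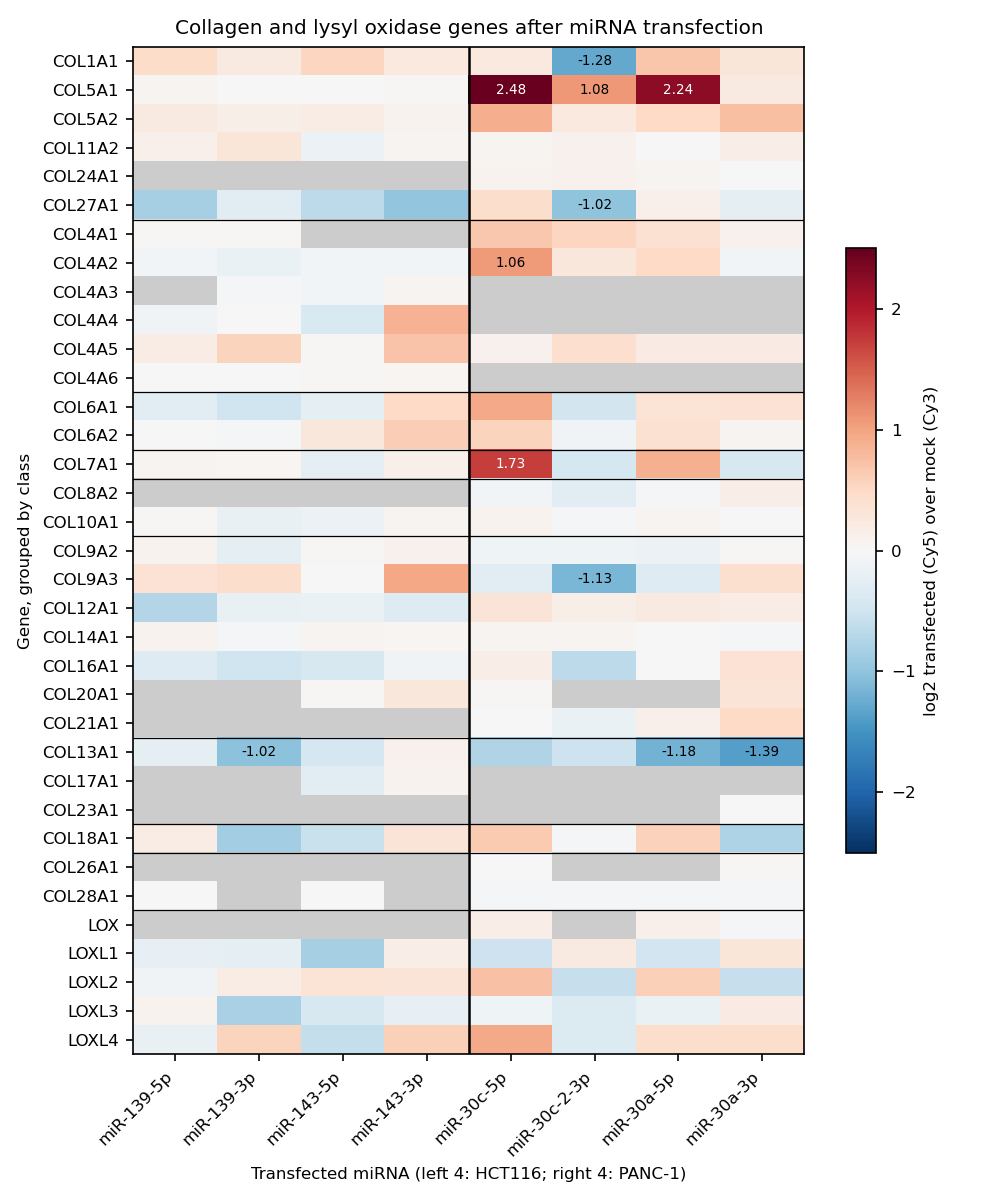
Log2 ratio of transfected (Cy5) over mock (Cy3) for the members detected on at least 1 array, grouped by collagen class, with 1 column per array. Grey cells were not detected and printed values are those at least 1 away from 0, of which 10 of 11 are in the PANC-1 columns.

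The 4 HCT116 arrays held 1 of these 11 values. None of the 26 members detected with miR-139-5p was past 2-fold, against a background over all detected genes of 0.200% lower and 0.0587% higher. Of the 26 detected with miR-139-3p, COL13A1 alone was lower, where 2.83% of all genes were lower and 2.11% were higher. For miR-143-5p it was none of 28, where all genes gave 1.0% lower and 0.356% higher. For miR-143-3p it was none of 27, where they gave 0.925% lower and 0.517% higher. COL13A1 was thus the only member to pass 2-fold in HCT116.

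PANC-1 held the remaining 10. With miR-30c-5p, 3 of 30 members were higher (COL4A2, COL5A1 and COL7A1) and none lower, against 0.747% of all genes higher and 0.445% lower. On the miR-30c-2-3p array 3 of 27 were lower (COL1A1, COL9A3 and COL27A1) and COL5A1 was higher, against 4.14% of all genes lower and 1.73% higher. Among 28 members on the miR-30a-5p array COL13A1 was lower and COL5A1 higher, against 0.263% and 0.310% of all genes. COL13A1 was the only one of 31 members past 2-fold with miR-30a-3p, where 1.1% of all genes were lower and 0.372% higher. The split of lower to higher moved with the scaling. With median centring in place of loess the miR-30a guide strand gave 0 to 3, where 0.105% of all genes were lower and 1.41% higher. The miR-30a passenger strand gave 1 to 3 on that scale (all genes 0.209% and 8.82%), and the miR-30c passenger strand 1 to 1 (2.77% and 3.48%). By the scanner log ratio these 3 gave 1 to 4 (all genes 1.73% lower and 2.75% higher), 1 to 2 (4.11% and 6.04%) and 7 to 3 (11.9% and 9.23%). On that measure miR-139-3p gave 3 to 1 (9.84% and 10.3%). Median centring left the median of all genes at 0.21 on the miR-30c-5p array, 0.15 on that of miR-30a-5p and 0.30 on that of miR-30a-3p, so that values on that scale include this shift.

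Over all detected members the median log2 ratio was 0.14 for the miR-30c guide strand and 0.13 for the miR-30a guide strand, where the median over all genes was 0.01 on each. It was 0.105 for miR-30a-3p, 0.10 for miR-143-3p, -0.08 for the passenger strand of miR-30c and -0.11 for miR-143-5p. On the miR-30c-5p array 22 of 30 members were above 0, beside 53.8% of all genes, and on the miR-143-3p array 22 of 27, beside 51.3%. By the scanner log ratio the member median was 0.606 for the miR-30c guide strand, 0.399 for the miR-30a guide strand and 0.345 for miR-143-3p, where the medians of all genes were 0.021, 0.023 and 0.048.

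COL5A1, the alpha-1 chain of type V collagen, which sits inside type I fibrils, gave the largest values. Its probe lies at chr9:137736327-137736386 on hg19, on the forward strand. In PANC-1 the mock channel read 8.32 and the transfected channel 10.80 (log2 level within the array) for the miR-30c guide strand, and 7.22 and 9.47 for the miR-30a guide strand. The channels of the passenger strands read 8.01 and 9.08 for miR-30c and 7.23 and 7.45 for miR-30a. The log2 ratios were 2.48, 2.24, 1.08 and 0.22 in that order, or 5.57-fold, 4.73-fold, 2.11-fold and 1.16-fold. In HCT116 all 8 channels lay between 5.89 and 5.97 and the ratios between 0.00 and 0.08. COL5A1 had a pair of further probes, which were dimmer. One gave log2 ratios of 0.78, 0.36, -0.02 and 0.02 for the same 4 miRNAs and the other 0.06, 0.05, 0.02 and 0.05. With the median over the detected probes in place of the brightest probe, COL5A1 stood at 0.78 and 0.36 for the guide strands and 0.53 for the miR-30c passenger strand, and no longer passed 2-fold. The mock RNA itself differed at this probe, by -0.88 (log2, mock of the miR-30a arrays minus mock of the miR-30c arrays). Against the mean of all 4 PANC-1 mock channels the ratios were 3.07, 1.81 and 1.37.

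COL7A1 encodes the only chain of type VII collagen, the anchoring fibril. Its probe spans chr3:48602401-48602588 on hg19, on the reverse strand. In PANC-1 the mock channels were all between 7.68 and 7.73. The transfected channels read 9.42 for the miR-30c guide, 8.58 for the miR-30a guide, 7.28 for the miR-30c passenger and 7.32 for the miR-30a passenger. The log2 ratios were thus 1.73, 0.88, -0.45 and -0.41, both guide strands above mock and both passenger strands below it, except that with median centring the miR-30a-3p value was 0.09. In HCT116 the ratios ran from -0.22 to 0.12.

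COL4A2 and COL4A1 encode the chains of the common type IV collagen of basement membranes, and lie head to head. The COL4A2 probe is at chr13:111165261-111165320 and the COL4A1 probe at chr13:110802347-110802406, both on hg19. For COL4A2 in PANC-1 the mock channels read 8.08, 8.11, 7.81 and 7.77 and the transfected channels 9.13, 8.38, 8.30 and 7.71, for guide and passenger of miR-30c and then of miR-30a. The log2 ratios were 1.06, 0.28, 0.49 and -0.06, so that 1 of the 4 was past 2-fold. COL4A1 gave 0.66, 0.53, 0.37 and 0.11 on these arrays, each above 0, from a dim probe whose mock channels were between 6.04 and 6.24. In HCT116 COL4A2 was between -0.16 and -0.07, and COL4A1 was detected on the pair of miR-139 arrays only, at 0.03 on each.

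**Figure D2:**
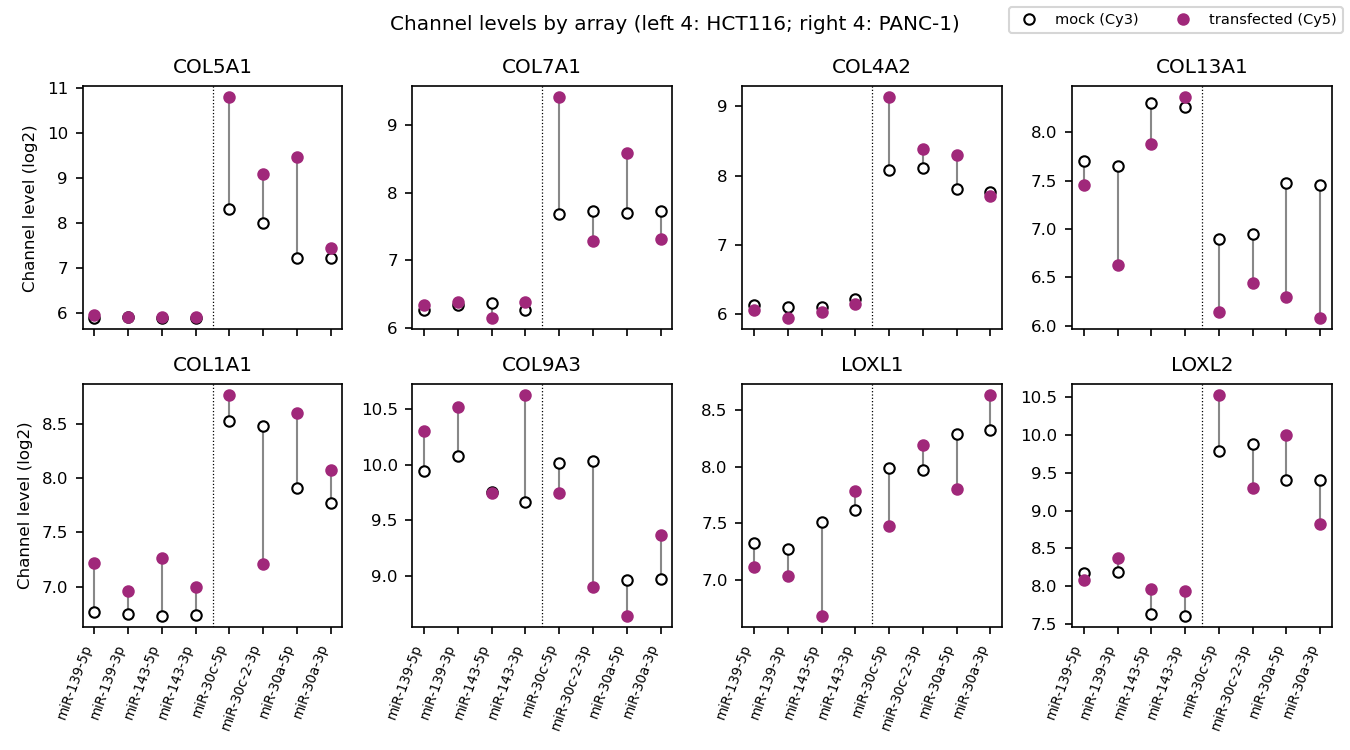
Mock (Cy3, open) and transfected (Cy5, filled) channel levels on a log2 scale for 8 members, 1 panel per gene and 1 position per array, joined by a line for each array. COL5A1 and COL7A1 sit near 6 in all HCT116 channels, and their widest gaps are with the guide strands of miR-30c and miR-30a.

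The starts of the 3 loci are shown because these members were past 2-fold upwards with a miR-30 guide strand. The sequences are from RefSeq on GRCh38.p14, written 5′ to 3′ on the strand given. Capitals mark matches to CCAAT, to the GC box GGGCGG or to the TATA motif TATAAA on either strand.
COL4A1 to COL4A2 interval, chr13:110307158-110307283, forward strand: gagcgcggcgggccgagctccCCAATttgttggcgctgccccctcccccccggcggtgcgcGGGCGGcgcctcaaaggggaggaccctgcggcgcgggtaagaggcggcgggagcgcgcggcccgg
COL5A1, chr9:134641553-134641802, forward strand: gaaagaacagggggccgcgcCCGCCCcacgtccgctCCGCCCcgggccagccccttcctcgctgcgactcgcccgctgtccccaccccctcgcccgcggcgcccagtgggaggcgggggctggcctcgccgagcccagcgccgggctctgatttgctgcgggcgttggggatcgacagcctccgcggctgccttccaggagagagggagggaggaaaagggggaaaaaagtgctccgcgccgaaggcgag
COL7A1, chr3:48595330-48595579, reverse strand: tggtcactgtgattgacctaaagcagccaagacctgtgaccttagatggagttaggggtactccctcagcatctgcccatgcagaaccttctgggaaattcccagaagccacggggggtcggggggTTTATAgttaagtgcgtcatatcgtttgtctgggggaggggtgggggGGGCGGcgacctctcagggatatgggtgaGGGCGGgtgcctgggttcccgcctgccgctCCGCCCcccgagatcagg
The 126 bases between the COL4A1 and COL4A2 starts hold 1 CCAAT and 1 GC box. The 250 bases before COL5A1 hold 2 GC boxes, and those before COL7A1 hold 3 GC boxes and 1 TATA match. In windows of 250 bases before the start, 33.0% of 27305 genes had a CCAAT, 42.3% a GC box and 11.1% a TATA match. In windows of 126 bases these shares were 21.9%, 34.6% and 6.23%. A match is a string of letters and not a measured site.

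The miR-30 guide strands were compared member by member, since they share a seed and their arrays had different mock RNA. Of the 28 members detected on both arrays, 18 were above 0 on both (64.3%, with 42.5% over the 20271 genes detected on both). Below 0 on both were 7 members, where 35.4% of those genes were. At least 0.3 above 0 on both were 10 members, or 35.7%, against 6.87% of all genes, a limit chosen after the values were seen. They were COL4A1, COL4A2, COL5A1, COL5A2, COL6A1, COL6A2, COL7A1, COL18A1, LOXL2 and LOXL4. They include 2 chains each of types IV, V and VI. At least 0.3 below 0 on both were COL13A1 and LOXL1, where 5.78% of all genes were. The 10 became 9 to 14 under the other settings, for which the share of all genes was not counted. The 14 came with median centring, where the median of all genes was itself 0.21 and 0.15 on these arrays. Settings that changed only the filter left the values as they were and could not move the 10.

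**Figure D3:**
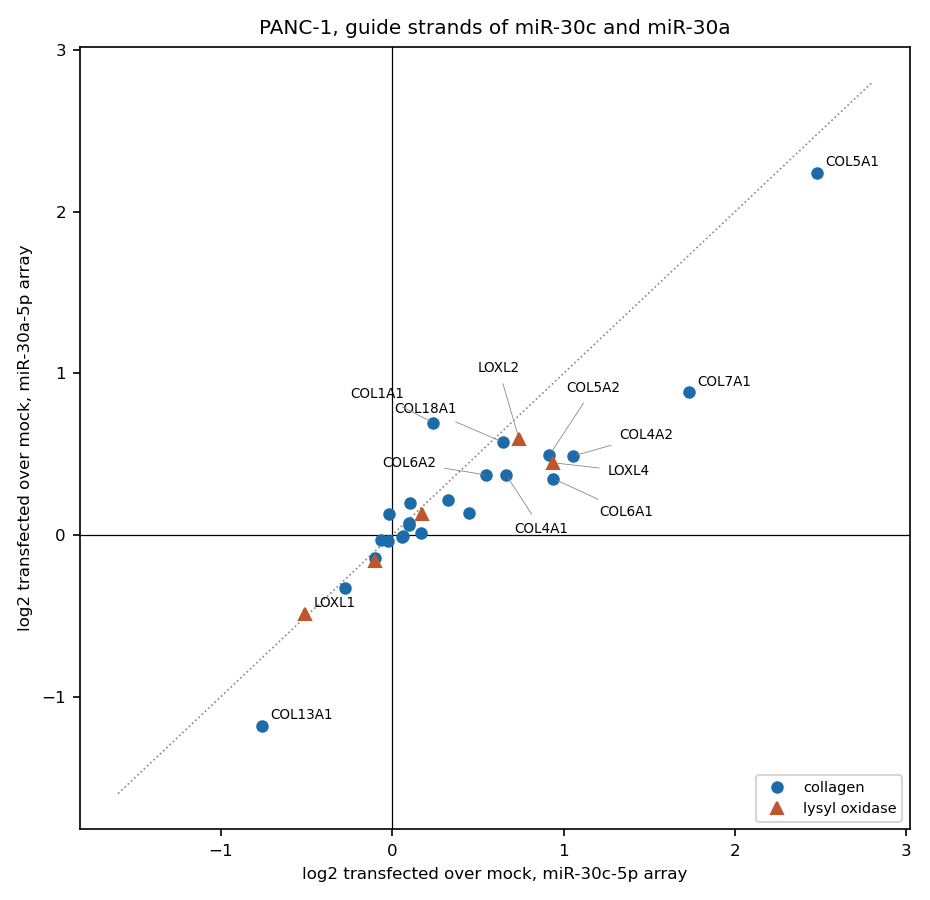
Log2 transfected over mock on the miR-30c-5p array (x axis) and the miR-30a-5p array (y axis) for the 28 members detected on both, with circles for collagens, triangles for lysyl oxidases and a dotted line of equal values. COL5A1 at 2.48 and 2.24 lies farthest from 0, COL7A1 lies below the dotted line at 1.73 and 0.88, and COL13A1 is lowest on both.

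COL5A2, which pairs with COL5A1 in type V collagen, was at 0.92 for the guide and 0.24 for the passenger of miR-30c, and at 0.50 and 0.75 for those of miR-30a. None of these reached 2-fold, while with median centring COL5A2 did on the miR-30c-5p and miR-30a-3p arrays. COL6A1 and COL6A2, the short chains of type VI collagen, were at 0.94 and 0.55 on the miR-30c-5p array and at 0.35 and 0.37 on the miR-30a-5p array. On the miR-30c-2-3p array they were at -0.47 and -0.08. A further COL6A2 probe gave 0.14 for the miR-30c guide, 0.12 for the miR-30a guide and -0.02 for miR-30c-2-3p. COL18A1, the source of endostatin, gave 0.64 and 0.57 for the guide strands of miR-30c and miR-30a, and -0.05 and -0.77 for the passenger strands. The strands of one precursor thus had values of unlike sign for COL6A1 on the miR-30c arrays and for COL18A1 on the miR-30a arrays, and no test of these differences could be made.

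COL13A1, a collagen that spans the plasma membrane, was the member most often lower. Its probe is at chr10:71718811-71718870 on hg19, on the forward strand. In PANC-1 its mock channels read 6.90, 6.95, 7.48 and 7.46 and its transfected channels 6.14, 6.44, 6.30 and 6.08, for guide and passenger of miR-30c and then of miR-30a. The log2 ratios were -0.76, -0.51, -1.18 and -1.39, so all 4 were below 0 and the pair past 2-fold was on the miR-30a arrays. The mock of the miR-30a arrays was 0.52 above that of the miR-30c arrays (log2), and against the mean mock of the line the miR-30a-5p value was -0.93, the miR-30a-3p value -1.12 and the miR-30c-5p value -1.03. By the scanner log ratio all 4 were past 2-fold, with -1.80 and -1.03 on the miR-30c arrays. In HCT116 the ratios were -0.25 for the 5p and -1.02 for the 3p strand of miR-139, and -0.42 and 0.10 for those of miR-143. With median centring the miR-139-3p value was -0.96 and the miR-30a-5p value -0.99.

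COL1A1, the alpha-1 chain of type I collagen, was above mock on 7 arrays and below it on 1 by loess, except that against the mean mock of the line the miR-30a-3p value was -0.07. Its probe is at chr17:48261509-48261568 on hg19, on the reverse strand. With miR-30c-2-3p the mock channel read 8.48 and the transfected channel 7.21, a log2 ratio of -1.28, or 2.42-fold lower. The other 3 PANC-1 arrays gave 0.24, 0.69 and 0.30, and the HCT116 arrays 0.45, 0.22, 0.54 and 0.25.

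COL9A3, a chain of the FACIT collagen type IX, was also lower with miR-30c-2-3p, where the channels read 10.04 and 8.90 and the log2 ratio was -1.13. Its probe is at chr20:61472271-61472330 on hg19, on the forward strand. It was at -0.27 and -0.33 for the guide strands of miR-30c and miR-30a, and at 0.40 for miR-30a-3p. In HCT116 it was at 0.36, 0.44, -0.01 and 0.97, the last with miR-143-3p. The mock RNA of the miR-30a arrays was -1.055 from that of the miR-30c arrays for this gene. Against the mean mock of the line the miR-30c-2-3p value was -0.62, which is within 2-fold, and the signs turned at miR-30c-5p (0.26) and miR-30a-3p (-0.13).

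COL27A1, a fibrillar collagen of cartilage, was at -1.02 with miR-30c-2-3p. It stood outside the rule for named genes because another probe went the other way, and is named after its values were seen. That probe was at 0.07 on this array and between -0.05 and 0.07 on all 8. The brighter probe gave -0.83, -0.26, -0.66 and -0.98 on the HCT116 arrays, each below 0. The lower value of COL27A1 is therefore that of 1 probe, at chr9:117073738-117073797, and not of the neighbouring one at chr9:117072895-117072954 (both hg19).

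Among the lysyl oxidases, the probes of LOXL2 and LOX were each printed 10 times. LOXL2 acts on collagen IV of basement membranes among other substrates. Its log2 ratio was 0.74 ± 0.0449 (SD between 10 spots) for the miR-30c guide and 0.59 ± 0.0528 for the miR-30a guide. For the passenger strands it was -0.58 ± 0.0204 (miR-30c-2-3p) and -0.57 ± 0.0638 (miR-30a-3p). Both guide strands were above mock and both passenger strands below it, by many times the spread between spots, except that with median centring the miR-30a-3p value was 0.09. On that scale the miR-30c guide gave 1.27, past 2-fold. In HCT116 the ratios were -0.09 and 0.19 on the miR-139 arrays, and 0.34 and 0.33 on the miR-143 arrays. The spread between spots is that of 1 hybridisation and not of cultures.

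LOXL1, which acts on elastin, ran the other way in PANC-1. It was at -0.51 and -0.49 for the guide strands of miR-30c and miR-30a, and at 0.22 and 0.31 for the passenger strands. Against the mean mock of the line the miR-30c-2-3p value was 0.04. Its lowest value was -0.83 with miR-143-5p, or -1.38 by the scanner log ratio, and the other HCT116 arrays gave -0.21, -0.24 and 0.16.

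LOXL4 was at 0.94 for the guide and -0.34 for the passenger of miR-30c, and at 0.45 and 0.44 for those of miR-30a. In HCT116 its values were -0.18 and 0.55 on the miR-139 arrays and -0.59 and 0.60 on the miR-143 arrays, below 0 with the 5p strand and above 0 with the 3p strand of each precursor. By the scanner log ratio it was past 2-fold at 1.51 with miR-30c-5p, 1.27 with miR-139-3p and -1.27 with miR-143-5p. LOXL3 was below 0 on 6 of the 8 arrays by loess, lowest at -0.82 with miR-139-3p (-1.47 by the scanner log ratio), and was at 0.09 with miR-139-5p and 0.21 with miR-30a-3p. LOX, the founding member of the family, was near background. It gave 0.17 ± 0.0465 (SD between 10 spots) for the miR-30c guide, 0.13 ± 0.0429 for the miR-30a guide and -0.03 ± 0.0317 for miR-30a-3p. Its values moved with the background treatment. The miR-30c guide gave 2.48 by the scanner log ratio and 1.14 with an offset of 1, both past 2-fold, and the miR-30a guide 0.59 and 0.47.

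The other detected collagens stayed within 2-fold on every array. COL4A4, a chain of the specialised type IV collagen of kidney and cochlea, was at 0.88 with miR-143-3p and -0.39 with miR-143-5p. COL4A5 ran from 0.03 to 0.71 over the 8 arrays. COL12A1, a FACIT collagen, ran from -0.73 to -0.17 on the HCT116 arrays, lowest with miR-139-5p, and from 0.14 to 0.33 on the PANC-1 arrays. A further COL12A1 probe was at 0.16 with miR-143-5p and 0.05 with miR-143-3p, opposite in sign to the brighter one. COL16A1 was at -0.65 with miR-30c-2-3p. The members nearest to 2-fold on the inside were COL27A1 at -0.98 with miR-143-3p, COL9A3 at 0.97 with miR-143-3p, COL6A1 and LOXL4 at 0.94 with miR-30c-5p and COL5A2 at 0.92 with miR-30c-5p. Those just past it were COL27A1 and COL13A1 at -1.02, COL4A2 at 1.06 and COL5A1 at 1.08. The line of 2-fold thus runs through a run of close values.

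The 60-base probes were searched for the heptamers that pair with bases 2 to 8 of the array's own miRNA, or with bases 2 to 7 followed by A. Such heptamers occurred in 0.592% to 1.58% of the 32758 detected probes. They were found in the probes of 4 members, of which 3 are shown here with up to 9 bases on either side and the heptamer in capitals.
COL10A1, miR-30a-3p: accttccccCTGAAAAgtgagcagc
COL23A1, miR-30c-2-3p: caagTCTCCCAcccagaact
COL1A2, miR-30a-3p: cCTGAAAAaggctgtca
COL10A1 was at 0.02 on its array, and the COL23A1 and COL1A2 probes were not above background on theirs. None of the 11 values past 2-fold belonged to a probe with its array's heptamer. A probe covers a short stretch of a transcript, and the rest of each transcript was not searched here.

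Genes that modify, fold, process, bind or degrade collagen were then counted from fixed lists written from general knowledge. Of 54 such genes on the array, 32 to 39 were detected per array. Past 2-fold were none with miR-139-5p, 1 higher for each of the 3p strands in HCT116, and 1 lower and 1 higher for miR-143-5p, for both miR-30 guide strands and for miR-30a-3p. On the miR-30c-2-3p array 6 of 35 were lower, or 17.1%, where 4.14% of all genes were lower. These counts stand beside the percentages of all genes given above for each array.

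With miR-30c-2-3p, 4 of the 6 lower genes act on collagen in the endoplasmic reticulum. SERPINH1, the collagen chaperone HSP47, was at -1.37, and FKBP10, a prolyl isomerase that helps lysyl hydroxylation, was at -1.56. P3H4, a partner of the modifying enzymes, was at -1.75, and the prolyl 3-hydroxylase P3H1 was at -1.06. A further probe of P3H1 gave -0.21, and the median over its probes was -0.64. MRC2, a receptor for collagen uptake, was at -1.35, and EFEMP2, a fibulin that helps lysyl oxidase reach elastin, at -1.34. The median of the 17 detected modification and folding genes on this array was 0.09, so the list as a whole did not lie below mock. SERPINH1 was at 1.02 with miR-30a-3p and at 0.68 and 0.57 for the guide strands of miR-30c and miR-30a.

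With both miR-30 guide strands the same pair of genes was past 2-fold. SEC23A, a coat protein of the vesicles that carry procollagen out of the endoplasmic reticulum, was at -1.69 for miR-30c and -1.68 for miR-30a. PLOD2, a lysyl hydroxylase of collagen telopeptides, was at 1.17 and 1.15. With the passenger strands SEC23A was at 0.68 and 0.51, and PLOD2 at 0.59 and -0.60, for miR-30c and miR-30a. In HCT116 the procollagen N-proteinase ADAMTS14 was at -1.30 with miR-143-5p, and CTSK, a collagen-degrading protease, at 1.84 with miR-139-3p. ITGB1, the beta chain of the collagen-binding integrins, was at 1.2 and 1.08 for the 5p and 3p strands of miR-143 and at -1.1 for miR-30a-3p, the last being -0.54 with median centring.

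**Figure D4:**
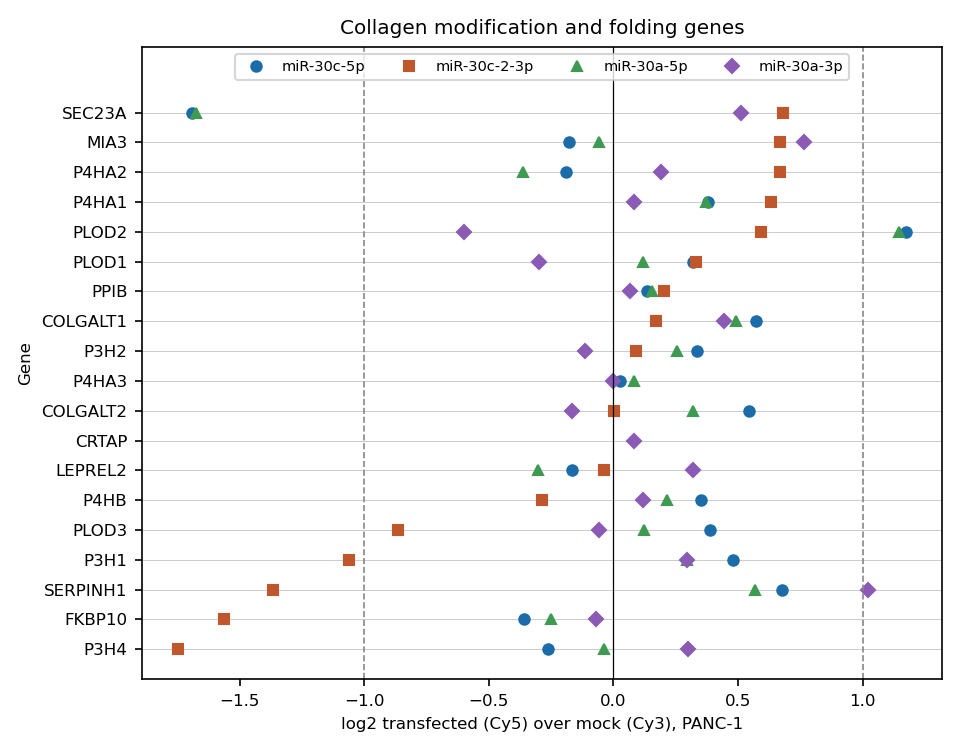
Log2 transfected over mock in PANC-1 for the genes of collagen modification and folding, 1 row per gene and 1 symbol per miRNA, with dashed lines at 2-fold and undetected values left out. SEC23A lies past the lower dashed line with both guide strands, and P3H4, FKBP10, SERPINH1 and P3H1 lie past it with miR-30c-2-3p.

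The mock channels were used to ask which members differed between the cell lines without a miRNA. The Cy3 channels of the 2 arrays of a precursor differed at 2-fold in 0 to 6 genes, and those of different precursors in 193 to 205 genes in HCT116 and 34 to 44 in PANC-1. Channels of one precursor were therefore averaged as 1 mock RNA, which gave 2 mock RNAs per line. The labels do not say whether these came from separate cultures, so that p-values measure only the spread between these samples. Of 19507 genes tested by limma, 27 were members. With an adjusted p under 0.05 and a 2-fold difference, 5 members were higher in HCT116, or 18.5%, against 5.76% of all genes, and 7 were higher in PANC-1, or 25.9%, against 5.91%. The other 15 were not called.

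The members higher in HCT116 were 1 FACIT chain, 1 fibrillar chain, chains of the specialised type IV network and COL6A1. COL12A1 had mock channels of 9.77, 9.71, 8.52 and 8.66 in HCT116 and of 6.02, 6.03, 6.15 and 6.17 in PANC-1. Its log2 difference was 3.07 ± 0.426 (SE, n = 2 mock RNAs per line, limma adjusted p = 0.012), the largest in this direction. The channels of COL4A5 were at 7.88 to 8.22 in HCT116 and 6.32 to 6.57 in PANC-1, a difference of 1.65 ± 0.127 (SE, limma adjusted p = 0.00393). The lines did not overlap at either gene. Here and below, the share of all genes without overlap was not counted. COL6A1 differed by 1.496 ± 0.061 (SE, limma adjusted p = 0.00159) and COL27A1 by 1.19 ± 0.092 (SE, limma adjusted p = 0.00394). COL4A4 was at 7.57 to 7.82 in HCT116 and not well above background in PANC-1, so it was at least 3.66-fold higher in HCT116 (limma adjusted p = 0.00133).

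Higher in PANC-1 were both type V chains, COL1A1, COL4A2, COL7A1, COL18A1 and LOXL2. COL5A2 was at 6.03 to 6.17 in HCT116 and 9.79 to 9.91 in PANC-1, and its log2 difference, HCT116 minus PANC-1, was -3.76 ± 0.069 (SE, limma adjusted p = 0.000683). COL18A1 was at 10.48 to 10.999 and 13.07 to 13.46, a difference of -2.53 ± 0.204 (SE, limma adjusted p = 0.00424). These 2 had the widest gaps in this direction, and no channels of the lines overlapped. For COL4A2 the difference was -1.75 ± 0.117 (SE, limma adjusted p = 0.00319) and for COL7A1 -1.37 ± 0.051 (SE, limma adjusted p = 0.00135). COL5A1, COL7A1 and COL4A2, which were past 2-fold upwards with a miR-30 guide strand, were thus all among the genes higher in PANC-1 mock cells. For LOXL2 the difference was -1.72 ± 0.26 (SE, limma adjusted p = 0.0145), for COL5A1 -1.72 ± 0.325 (SE, limma adjusted p = 0.0237) and for COL1A1 -1.41 ± 0.236 (SE, limma adjusted p = 0.018). The last 3 had the largest errors of the 7. COL1A1 and COL5A1 were not called without either HCT116 mock RNA, LOXL2 not without either PANC-1 mock RNA, and COL18A1 not without that of the miR-30c arrays. With the median over probes COL27A1 and COL5A1 were not called.

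**Figure D5:**
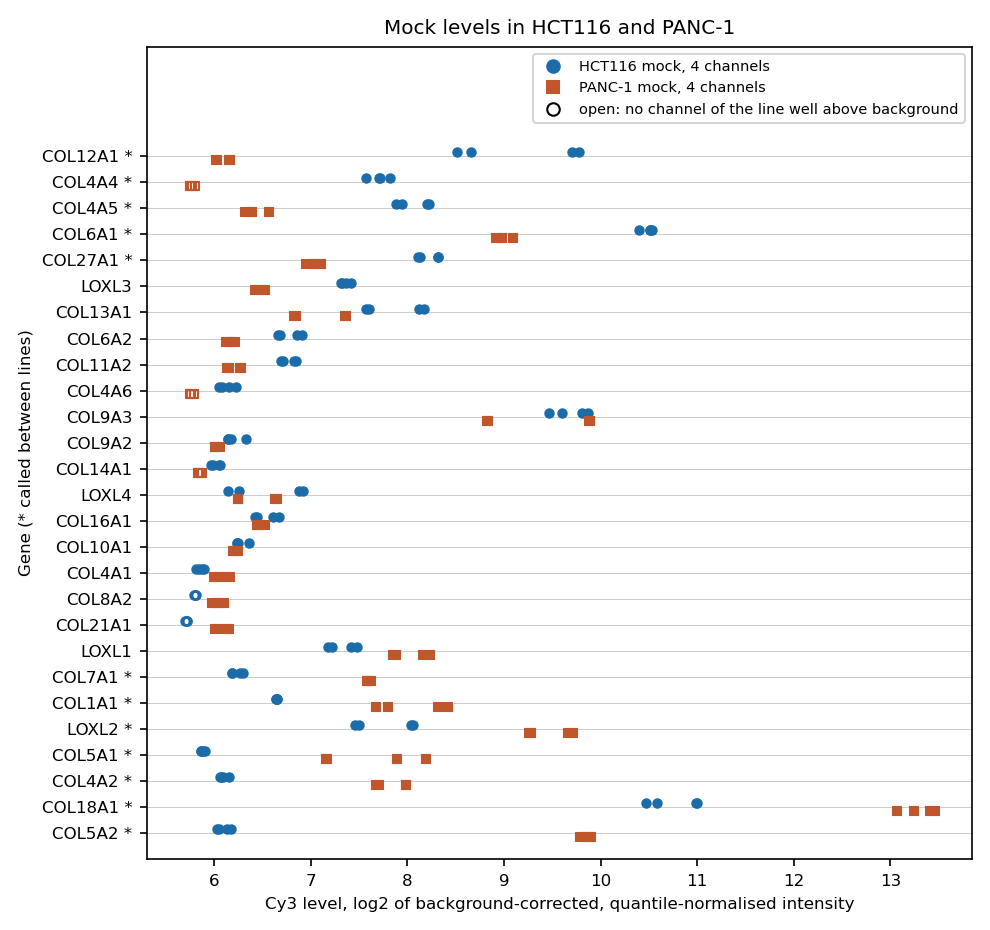
Cy3 level of the 27 tested members in the mock channels of HCT116 (circles) and PANC-1 (squares), on a log2 scale after quantile normalisation, 4 channels per line, ordered by the difference between lines. Asterisks mark the 12 called members, open symbols mark a line with no channel well above background, and levels compare lines within a gene and not genes with each other.

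Members that were not called had differences under 2-fold. LOXL3 was 0.88 ± 0.056 higher in HCT116 (log2, SE, limma adjusted p = 0.00304), and COL6A2 0.61 ± 0.092 (SE, limma adjusted p = 0.0144), with no overlap of channels between the lines. LOXL1 was at -0.71 ± 0.159 (SE, limma adjusted p = 0.035). COL9A3 differed by 0.33 ± 0.405 and LOXL4 by 0.11 ± 0.297 (SE), errors larger than the differences, and their mock RNAs differed within a line. Between the mock RNAs of HCT116, COL12A1 differed by -1.15 (log2, mock of the miR-143 arrays minus mock of the miR-139 arrays) and LOXL4 by 0.70. LOX was not tested, since it was not above background in all channels of either line. Of the members higher in HCT116, COL4A5 and COL12A1 were not called without either PANC-1 mock RNA, and COL27A1 not without that of the miR-30c arrays. COL4A4 and COL6A1 kept their call in both cases.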

How the data were processed

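The members and gene lists were chosen with earlier results of these data known. Per the file headers, Feature Extraction 11.5.1.1 gave the mean intensity of each spot and its median background, with probe positions on hg19, and the deposited log10 ratio of Cy5 to Cy3 signal. The table processed by the authors repeats these log10 ratios. Intensities were processed with limma 3.58.1 in R 4.3.3, by normexp with an offset of 50 and loess within each array. Control spots and outlier spots were left out, spots of a probe were averaged, and each gene was represented by the probe with the highest mean signal. An offset of 50 pulls ratios of dim probes towards 0. Mock channels were quantile-normalised and tested with lmFit and eBayes, with Benjamini-Hochberg adjustment over all genes tested. On simulated data of the mock comparison, with 200 of 19507 genes changed, 43% of log2 changes of 1 and 83% of changes of 2 were recovered. Recovery there meant an adjusted p under 0.05 alone, and 6 unchanged genes were also called. The reported calls needed a 2-fold difference as well, so recovery under that rule was not measured. The simulation also changed fewer genes than the 1123 and 1153 called higher in HCT116 and PANC-1. Named were the lysyl oxidases, collagens past 2-fold in both channels with no detected probe opposed, and listed pathway genes past 2-fold. Members above background in all mock channels of a line were tested there. Tables were made in Python 3.11.15. The number of arrays limits the precision. One further marker and one further probe match are not reported here. The alternatives were other background corrections, centring, filters, probe rules and mock references.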

Additional observations from a re-analysis of the deposited data

Results flagged for a closer look

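In PANC-1 the values of 4 members had one sign with both guide strands of miR-30 and the other sign with both passenger strands. Each value was more than 2 times the array's median SD between spots, taken over the probes printed 10 times. The members with this pattern were 4 of 22 above background in both channels of all PANC-1 arrays, or 18.2%. Over all genes, 5.61% of 17553 showed the pattern. The difference between strands was not tested, since each miRNA was on 1 array. COL7A1 had log2 ratios of 1.73 (miR-30c) and 0.88 (miR-30a) for the guide strands, and of -0.45 and -0.41 for the passenger strands. LOXL2 was at 0.74 and 0.59 with the guide strands and at -0.58 and -0.57 with the passenger strands. LOXL1 was the reverse, at -0.51 and -0.49 with the guide strands and 0.22 and 0.31 with the passenger strands. COL27A1 was at 0.45 and 0.13 with the guide strands and at -1.02 and -0.22 with the passenger strands, at 1 of its probes only. With median centring the miR-30a-3p values were 0.09 for COL7A1, 0.09 for LOXL2 and 0.19 for COL27A1, so that for these the signs were no longer opposed on the miR-30a arrays. Against the mean mock of the line LOXL1 with miR-30c-2-3p was at 0.04, too small to meet the limit on spots.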

How the results depend on the processing

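No paired analysis was possible because each miRNA was on 1 array and the labels carry no replicate numbers. Of 98 counts under another setting, 56 were within 1.5 times the reported one and 42 were not. Members past 2-fold numbered 0, 1, 0, 0, 3, 4, 2 and 1 for the 5p and 3p strands of miR-139, of miR-143, of miR-30c and then of miR-30a. By the scanner log ratio they numbered 2, 4, 4, 5, 10, 10, 5 and 3, where 3.72%, 20.2%, 8.74%, 9.32%, 7.38%, 21.1%, 4.48% and 10.1% of all genes were past 2-fold. With an offset of 1 they numbered 1, 4, 3, 4, 8, 8, 4 and 3, where 0.948% to 15.4% of all genes were. Without background correction the first 5 arrays gave 1, 2, 1, 1 and 6, where all genes gave 0.504%, 7.83%, 2.19%, 2.45% and 2.04%. With median centring they were 0 for miR-139-3p, 8 and 2 for the guide and passenger of miR-30c, and 4 for the passenger of miR-30a. All genes gave 4.93%, 4.1%, 6.26% and 9.03% in that order. The median over probes gave 2 for the miR-30c passenger (4.66% of all genes) and 1 for the miR-30a guide (0.438%). The mean mock of the line gave 2 for miR-139-3p (4.88% of all genes), and 5 and 1 for the guides of miR-30c (0.967%) and miR-30a (0.859%). Genes of the collagen pathway past 2-fold were reported as 0, 1, 1, 2, 6, 2 and 2 for the arrays other than miR-143-5p. By the scanner log ratio they were 2, 7, 6, 7, 11, 5 and 7, beside the scanner shares of all genes above. With median centring they were 6 for miR-30c-5p and 8 for miR-30a-3p, beside 4.1% and 9.03% of all genes. Members higher in HCT116 mock RNA, 5 as reported, were 10 by the processed signal, where 15.9% of all genes were. Those higher in PANC-1, 7 as reported, were 10 by that signal, where 16% of all genes were. No fit with a mock RNA left out called more members than reported, and such a fit leaves 1 mock RNA in its line. Of 662 values of named members under another setting, 319 moved by more than the array's median SD between spots. Of the called values 0 changed sign, a weak check since each lay 1 or more from 0. Some did fall within 2-fold. Examples are COL5A1 with miR-30a-5p, at 0.36 by the median over probes, and COL9A3 with miR-30c-2-3p, at -0.62 against the mean mock. COL27A1 was not among these named members. The 662 include values that could not move. Changing the filter leaves each value as it was, and the median over probes cannot move a gene with 1 probe. Among values that could move, the share that moved was therefore larger. The cause of the moves was not tested. A background offset compresses the ratios of dim probes by construction.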
